A study of Mus musculus with 13 samples.

Results

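In mouse embryonic stem cells (ESCs), 357 sites had a ChIP-seq peak of the co-repressor NCoR, none of its paralog SMRT, no peak of either protein at day 9 of reprogramming, and H3K27ac close by. They were drawn from 5245 ESC co-repressor sites, made by merging NCoR and SMRT intervals that overlapped. Of those sites, 3687 held NCoR, 921 held NCoR without SMRT, and 781 of the 921 overlapped no day 9 interval. An H3K27ac interval of ESCs or of mouse embryonic fibroblasts (MEFs) had its centre within 1 kb of the site centre at 357 of the 781, and at 424 it did not. A further 134 acetylated NCoR-only sites overlapped a day 9 interval and were left out. Every one of the 357 is a single interval of 200 bp. The peak lists of NCoR, SMRT and H3K27ac chose these sites, so the steps above are a description and carry no test.

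The study profiled 13 libraries, 1 per group, without replicates. H3K27ac was profiled in MEFs of strain C57BL/6J-OG2 given the reprogramming factors OSKM (Pou5f1, Sox2, Klf4 and Myc), harvested at days 5, 9 and 13 after co-transfer of HDAC3-YF, a deacetylase-null mutant of HDAC3, or of a FLAG control plasmid. NCoR and SMRT were profiled in the same kind of OSKM cultures at day 9 with neither plasmid named, and H3K27ac in untreated MEFs of that strain. NCoR, SMRT and H3K27ac were also profiled in untreated ESCs of strain C57BL/6J, and the ESC input was not analysed here. The labels presume the OSKM cells to be intermediate reprogramming cells and name no sort, so each OSKM library may mix cells at several stages. No group is labelled as lacking its own HDAC3.

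NCoR and SMRT are large scaffold proteins that nuclear receptors and other repressive transcription factors recruit to DNA. Both bind the histone deacetylase HDAC3 and are needed for its enzyme activity, and HDAC3 removes acetyl groups from histone tails. H3K27ac, acetylation of histone H3 at lysine 27, is found at active promoters and enhancers.

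The word "ESC-specific" fits these sites only for co-repressor binding. Both cell types had H3K27ac close to 251 of the 357 sites (70.3%, 95% Wilson interval 65.4 to 74.8%). ESCs alone had it at 79 (22.1%, 18.1 to 26.7%), and MEFs alone at 27 (7.56%, 5.25 to 10.8%). Of all 5245 ESC co-repressor sites, 10.2% had H3K27ac near in ESCs alone and 2.99% in MEFs alone. The rule demanded one of these libraries, so the shares are not read against those backgrounds. Single-library absence calls also matter for the choice: 63 of the 357 had an ESC SMRT centre within 1 kb without overlap, and 95 had a day 9 co-repressor centre within 1 kb. The cell labels were checked on marker loci. Over the 35 pluripotency genes and the 20 kb around them there were 165 H3K27ac intervals in ESCs, against 42 in MEFs. Over the 30 fibroblast genes there were 34 in ESCs, against 133 in MEFs.

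The promoters below show 5 of the sites on which the later results turn. Each is the RefSeq window from 250 bases before to 50 bases after the start site (GRCm38.p6, the mm10 assembly), written 5′ to 3′ on the gene's strand, with the bases that lie inside the NCoR interval in capitals. Hnrnpab (chr11:51606832-51607131, minus strand) had H3K27ac in all 8 libraries. Kctd6 (chr14:8214252-8214551, plus strand) had one of the highest NCoR scores. Il15ra (chr2:11705462-11705761, plus strand) and Galnt17 (chr5:131307473-131307772, minus strand) had H3K27ac in MEFs and not in ESCs. Sccpdh (chr1:179667981-179668280, plus strand) had H3K27ac in the FLAG and not in the HDAC3-YF library at 2 of 3 days.
Hnrnpab: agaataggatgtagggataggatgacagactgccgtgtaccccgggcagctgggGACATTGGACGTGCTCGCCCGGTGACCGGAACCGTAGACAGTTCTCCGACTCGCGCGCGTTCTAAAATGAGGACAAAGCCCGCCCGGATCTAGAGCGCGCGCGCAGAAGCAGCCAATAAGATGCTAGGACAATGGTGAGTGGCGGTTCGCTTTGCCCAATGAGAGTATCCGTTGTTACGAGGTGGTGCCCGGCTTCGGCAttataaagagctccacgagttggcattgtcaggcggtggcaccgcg
Kctd6: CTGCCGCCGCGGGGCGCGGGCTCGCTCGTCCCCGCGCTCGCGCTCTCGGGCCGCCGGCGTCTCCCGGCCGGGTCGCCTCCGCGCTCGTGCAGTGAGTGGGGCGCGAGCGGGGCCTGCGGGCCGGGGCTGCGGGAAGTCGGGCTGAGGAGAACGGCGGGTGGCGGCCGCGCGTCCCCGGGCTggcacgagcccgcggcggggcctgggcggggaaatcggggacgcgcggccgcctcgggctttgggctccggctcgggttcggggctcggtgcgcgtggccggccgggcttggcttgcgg
Il15ra: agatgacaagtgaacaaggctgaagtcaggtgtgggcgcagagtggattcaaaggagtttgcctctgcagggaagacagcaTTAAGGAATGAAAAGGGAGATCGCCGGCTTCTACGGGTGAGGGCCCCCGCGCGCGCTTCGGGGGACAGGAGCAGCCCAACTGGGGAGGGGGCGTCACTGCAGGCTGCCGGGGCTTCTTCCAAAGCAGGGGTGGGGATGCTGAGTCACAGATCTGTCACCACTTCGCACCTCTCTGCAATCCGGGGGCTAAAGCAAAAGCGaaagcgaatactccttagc
Galnt17: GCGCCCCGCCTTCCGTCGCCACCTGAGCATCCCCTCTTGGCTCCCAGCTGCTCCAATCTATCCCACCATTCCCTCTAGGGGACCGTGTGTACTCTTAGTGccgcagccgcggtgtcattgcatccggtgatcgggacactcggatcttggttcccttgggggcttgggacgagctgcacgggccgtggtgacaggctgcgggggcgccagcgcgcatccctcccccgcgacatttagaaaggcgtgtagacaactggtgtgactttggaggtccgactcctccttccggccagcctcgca
Sccpdh: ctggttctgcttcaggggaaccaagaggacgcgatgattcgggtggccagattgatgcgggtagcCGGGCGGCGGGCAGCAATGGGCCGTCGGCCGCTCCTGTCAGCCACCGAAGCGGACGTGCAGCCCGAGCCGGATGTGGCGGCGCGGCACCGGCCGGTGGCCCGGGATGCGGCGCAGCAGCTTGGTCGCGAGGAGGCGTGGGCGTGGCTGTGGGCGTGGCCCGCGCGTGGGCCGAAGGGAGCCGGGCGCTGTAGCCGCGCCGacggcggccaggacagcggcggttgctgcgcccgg

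The Sccpdh and Kctd6 windows were 74.7% and 82.0% G and C, with 43 and 55 CpG dinucleotides, against a median of 52.7% and 7 CpG in all 32851 RefSeq windows. The Il15ra window was 58.7% G and C with 15 CpG. Inside the Hnrnpab interval the NF-Y letters CCAAT began 193, 84 and 41 bases before the start, on either strand. The Il15ra interval held the AP-1 letters TGAGTCA starting 30 bases before the start and the TEAD letters GGAATG starting 165 bases before it. The Galnt17 interval held GGAATG, on the other strand and so printed as CATTCC, and CCAAT, starting 184 and 198 bases before the start. Matched letters describe the sequence and do not show a bound factor.

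The authors' score of the NCoR list is signed and shared with the SMRT list, so it is not a peak height. It ran from -0.85 to 2.80 over the 357 sites, with a median of 1.33 and quartiles of 1.14 and 1.66. NCoR intervals with an identical SMRT interval, which the rule leaves out, scored between -0.99 and 0.998, and 12 of the 357 fell below 1. The ESC SMRT list ran from -3.24 to 0.998 and the ESC NCoR list from -0.99 to 2.90. Of the 357 sites, 345 scored 1 or more, above every ESC SMRT interval. The class thus follows this score closely, and a missing SMRT interval does not show that SMRT was absent. The highest scores were at B3glct, which encodes a glucosyltransferase of thrombospondin repeats (2.80), Cdkn2aipnl (2.69), Pnrc2, a nuclear receptor coactivator and RNA decay factor (2.65), and Kctd6, a cullin-3 adaptor (2.49). The next score, 2.46, was shared by 6 sites. They were Polr3b, encoding a core subunit of RNA polymerase III, a site 12789 bp from Ranbp17, a nuclear transport receptor gene, and start-site sites of Camkk2, Tubb5, Hscb and 9930021J03Rik, each with H3K27ac in both cell types. The first 4 lie within 1 kb of a start site and had H3K27ac in all 8 libraries. The Polr3b and Ranbp17 sites had H3K27ac in ESCs alone, with H3K27ac scores of 7.35 and 200. The lowest scores were at a Y-linked predicted gene, Gm52481 (-0.85), the start of the deubiquitinase gene Otud4 (-0.29), Stk25, a Ste20-family kinase (-0.01), and Hmox2, a heme oxygenase (-0.01). Rgmb, a BMP co-receptor, had 0.00 and Dach1, a transcription factor, 0.16. The median score was 1.33 at start sites, 1.27 in gene bodies and 1.33 between genes, so the score did not order the sites by position.

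**Figure D1:**
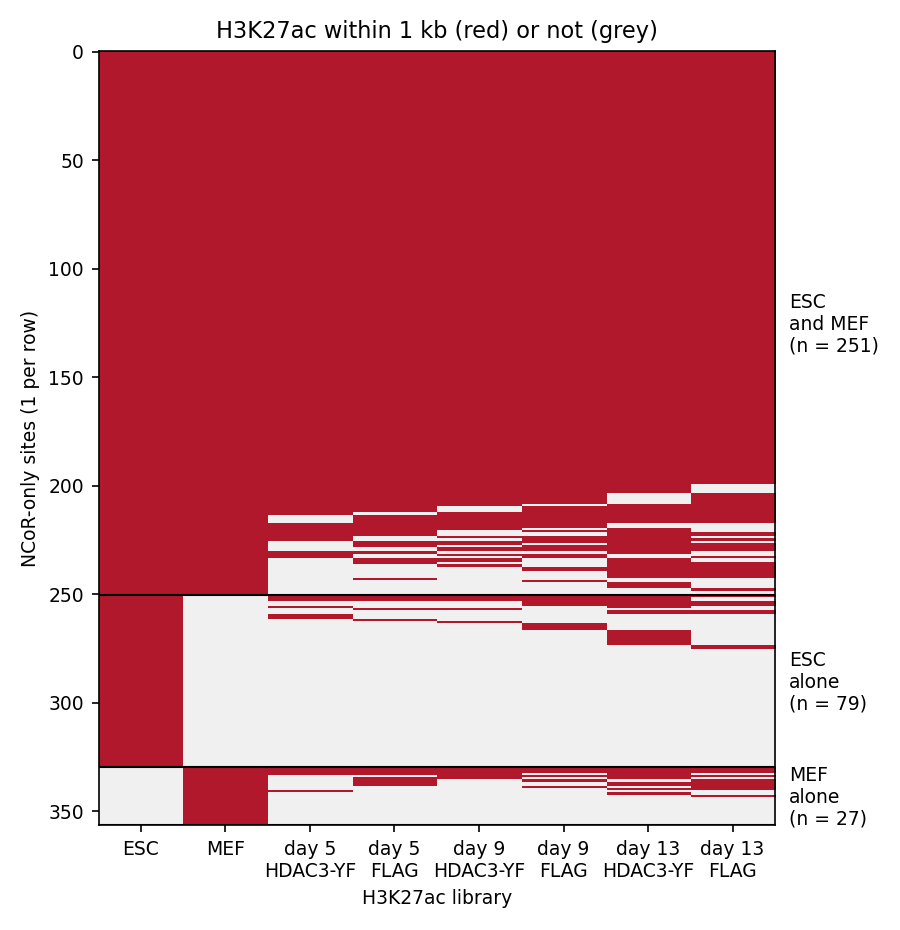
Presence of an H3K27ac centre within 1 kb (red) or its absence (grey) at each of the 357 NCoR-only sites (rows) in the 8 H3K27ac libraries (columns), with rows grouped by H3K27ac in both ESCs and MEFs (251), ESCs alone (79) or MEFs alone (27). The top block is red throughout for 200 sites, while 54 of the 79 sites with H3K27ac in ESCs alone are grey in all 6 OSKM libraries.

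The 6 OSKM H3K27ac libraries played no part in the choice. At day 5, H3K27ac was near 236 of the 357 sites with HDAC3-YF (66.1%, 95% interval 61.0 to 70.8%) and 244 with FLAG (68.3%, 63.3 to 73.0%). At day 9 it was near 238 with HDAC3-YF (66.7%, 61.6 to 71.4%) and 245 with FLAG (68.6%, 63.6 to 73.2%). At day 13 it was near 262 with HDAC3-YF (73.4%, 68.6 to 77.7%) and 247 with FLAG (69.2%, 64.2 to 73.8%). Over all 5245 ESC co-repressor sites the shares were 56% and 57.5% at day 5 with HDAC3-YF and FLAG, 57.3% and 58% at day 9, and 62.9% and 59.2% at day 13. Those 5245 sites include many with no H3K27ac in any library, so the acetylated classes are the closer comparison.

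H3K27ac was near in at least 1 OSKM library at 288 sites (80.7%, 76.3 to 84.4%), in all 6 at 204 (57.1%) and in none at 69 (19.3%). Compared with the 1575 sites chosen by the same steps that held both NCoR and SMRT, a smaller share of NCoR-only sites was acetylated during reprogramming. The share in any OSKM library was 80.7% at NCoR-only sites and 91.2% at sites with both proteins, a difference of -10.6 percentage points (95% Newcombe interval -15.2 to -6.52). All 6 OSKM libraries had H3K27ac at 57.1% of NCoR-only sites and 66.5% of sites with both (-9.40 points, -15.1 to -3.84). The gap was present in each library, from -8.16 points at day 5 with FLAG (-13.6 to -3.07) to -12.0 points at day 13 with HDAC3-YF (-17.1 to -7.32). The 648 sites with SMRT only lay closer: 83.3% of them were acetylated in any OSKM library, and the difference of -2.66 points had an interval of -7.82 to 2.19. All these intervals treat sites as independent and cover the counting of sites only, not the spread between cultures.

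Other values move with that gap. Both cell types had H3K27ac near 70.3% of NCoR-only sites, against 79.0% of sites with both proteins and 68.4% of SMRT-only sites. The rule used these libraries, so those shares carry no test. The near ESC interval was at the score ceiling of 200 at 50.3% of NCoR-only sites and at 58.5% of sites with both proteins. The part of H3K27ac strength in the gap was not tested.

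**Figure D2:**
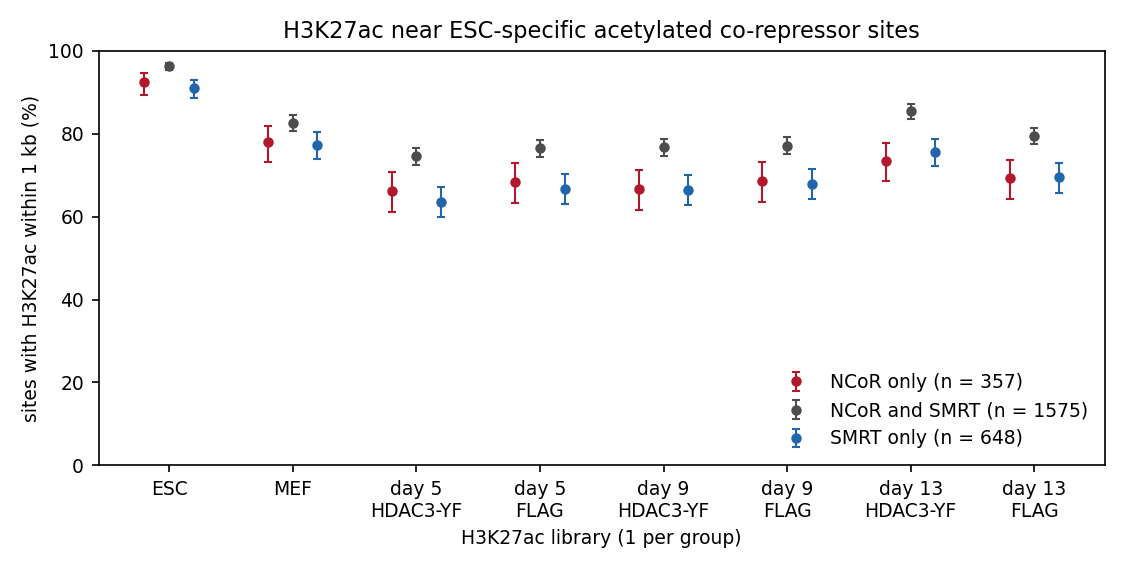
Share of sites with an H3K27ac centre within 1 kb (%, y axis) in the 8 H3K27ac libraries (x axis) for NCoR-only sites (357), sites with NCoR and SMRT (1575) and SMRT-only sites (648); points are shares and bars 95% Wilson intervals. NCoR-only sites lie below sites with both proteins in every library, by 12.0 points at day 13 with HDAC3-YF, and near SMRT-only sites.

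What a site looked like in reprogramming cultures followed how it was marked in the starting and end cell types. Of the 251 sites marked in both cell types, 249 had it in at least 1 OSKM library (99.2%, 97.1 to 99.8%) and 200 in all 6 (79.7%, 74.3 to 84.2%). Of the 79 with H3K27ac in ESCs alone, 25 had it in any (31.6%, 22.4 to 42.5%) and 1 in all 6. Of the 27 with H3K27ac in MEFs alone, 14 had it in any (51.9%, 34.0 to 69.3%) and 3 in all 6. The difference between the first and the second group in any OSKM library was 67.6 points (56.5 to 76.8). Between MEFs alone and ESCs alone it was 20.2 points, with an interval of -0.72 to 39.9 that includes 0. The near ESC interval had a median score of 200 at sites marked in both cell types, 158 of them at the ceiling, and of 21.8 at sites marked in ESCs alone, 8 of them at the ceiling. How far the lower scores set the missing OSKM calls was not tested.

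The same split followed position. A list of RefSeq start sites was used for the 351 sites outside chromosome 18. It lacked the starts of some genes. The Xkr6 site lay 280 bp from a gene end and 535994 bp from the nearest listed start. For the Alkal1 site these distances were 19 and 1038780 bp. Some sites at promoters may thus be counted below as in gene bodies or between genes. H3K27ac in both cell types went with start sites: 203 of 247 such sites were within 1 kb of one (82.2%, 76.9 to 86.5%). Of the 79 sites with H3K27ac in ESCs alone, 16 were (20.3%, 12.9 to 30.4%), while 33 lay in gene bodies and 30 between genes. The difference was 61.9 points (50.5 to 70.5). Of the sites with H3K27ac in MEFs alone, 11 of 25 were at a start site (44%, 26.7 to 62.9%). Read by position, 223 of 230 start-site sites had H3K27ac in an OSKM library (97.0%, 93.9 to 98.5%), 48 of 81 in gene bodies (59.3%, 48.4 to 69.3%) and 12 of 40 between genes (30%, 18.1 to 45.4%). By the listed starts, the split by state was present within each position. Over 1 kb from a listed start, 42 of 44 sites marked in both cell types had H3K27ac in an OSKM library (95.5%, 84.9 to 98.7%). Of those marked in ESCs alone, 14 of 63 had it (22.2%, 13.7 to 33.9%). That group may include promoters whose start is not listed, so it does not separate state from position. At start sites it was 203 of 203 marked in both cell types, against 11 of 16 marked in ESCs alone (68.8%, 44.4 to 85.8%).

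Within 1 library pair per day, sites marked with only HDAC3-YF or only FLAG were few. At day 5, 9 sites had H3K27ac with HDAC3-YF alone and 17 with FLAG alone, a difference in share of -2.24 percentage points (95% interval from the discordant sites -5.03 to 0.55). The matching shares of all ESC sites were 1.7% and 3.22%. At day 9 the counts were 10 with HDAC3-YF alone and 17 with FLAG alone, a difference of -1.96 points (-4.81 to 0.88), against 2.38% and 3.11% of all ESC sites. At day 13 they were 27 with HDAC3-YF alone and 12 with FLAG alone, a difference of 4.20 points (0.80 to 7.60), against 6.41% and 2.71% of all ESC sites. The day 13 interval lies above 0 and those of days 5 and 9 include it. With the top 50% of each H3K27ac list the day 5 difference was -3.53 points (-7.04 to -0.03), and with equal numbers of intervals -3.46 points (-6.62 to -0.30), both below 0. Taken as 3 pairs of libraries matched by day, the arms differed by a mean of 0 points (SD 3.64, n = 3 days, two-sided exact sign-flip test p = 1, where the smallest p possible is 0.25). That pairing was chosen after the values were seen. Its mean sets days of opposite sign against each other, so it cannot show a difference confined to 1 day.

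The same day 13 difference was 5.84 points at sites with both proteins (4.10 to 7.59), 6.17 at SMRT-only sites (3.19 to 9.16) and 3.70 over all ESC sites (2.89 to 4.51). These ranges overlap that of the NCoR-only sites, and differences between the classes were not tested. With H3K27ac counted within 2.5 kb in place of 1 kb, the day 13 difference at NCoR-only sites was 2.34 points (-0.75 to 5.43). With H3K27ac overlapping the site, the day 13 difference over the same 357 sites was 4.48 points (-0.15 to 9.12). By that rule it was 5.90 points at sites with both proteins (3.55 to 8.26) and 3.11 over all ESC sites (2.02 to 4.19). At SMRT-only sites it was 0.93 points (-2.50 to 4.35), so the value there depends on the 1 kb rule. With 1 library per group, a difference between plasmids and one between cultures cannot be told apart. The share of intervals at the score ceiling was 2.11% with HDAC3-YF and 1.67% with FLAG at day 13 and 9.06 to 11.9% in the 4 earlier OSKM lists, and the part of that in the day 13 values was not tested.

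The day 13 difference was also read by kind of site. At the 79 sites with H3K27ac in ESCs alone, 15 had H3K27ac with HDAC3-YF and 7 with FLAG at day 13 (10.1 points, 1.83 to 18.4). At the 251 marked in both cell types, 237 had it with HDAC3-YF and 230 with FLAG (2.79 points, -0.77 to 6.35). At the 27 marked in MEFs alone, 10 had it in each arm. Start-site sites differed by 5.65 points (1.63 to 9.67) and sites over 1 kb from a listed start site by 1.65 points (-4.82 to 8.13). The intervals of these groups overlap, and differences between the groups were not tested. With H3K27ac overlapping the site in place of within 1 kb, the day 13 difference at ESC-alone sites was 6.33 points (-0.98 to 13.6). Counted within 1 kb at day 9, the ESC-alone difference was -3.80 points (-10.3 to 2.71).

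**Figure D3:**
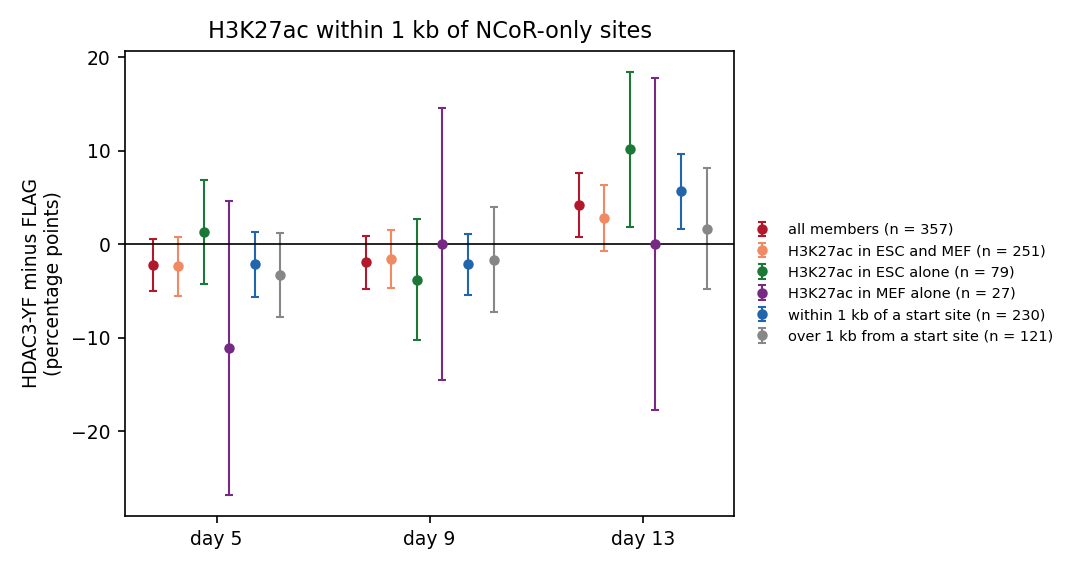
Share of sites with H3K27ac within 1 kb with HDAC3-YF minus that with FLAG (percentage points, y axis) at days 5, 9 and 13 for all 357 NCoR-only sites and for subsets by H3K27ac state and position; points are differences and bars 95% intervals from sites marked in 1 arm alone. For all sites the values are -2.24, -1.96 and 4.20. For sites with H3K27ac in ESCs alone they are 1.27 (-4.27 to 6.81), -3.80 (-10.3 to 2.71) and 10.1 (1.83 to 18.4).

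From day 5 to day 13, with HDAC3-YF, 38 sites had H3K27ac at day 13 alone and 12 at day 5 alone, a net gain of 7.28 points (3.48 to 11.1). The matching shares of all ESC sites were 8.79% and 1.89%. With FLAG, 22 sites had it at day 13 alone and 19 at day 5 alone, a net gain of 0.84 points (-2.67 to 4.35), against 4.86% and 3.18% of all ESC sites. Sites with both proteins gained 10.9 points with HDAC3-YF (8.94 to 12.8) and 3.05 points with FLAG (1.38 to 4.72). A net gain with HDAC3-YF was thus present in the larger class too. H3K27ac was present at all 3 days at 215 NCoR-only sites with HDAC3-YF and 218 with FLAG, and at none at 81 and 85 sites.

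Both arms gave the same call at every day at 286 of the 357 sites. Only 4 sites had H3K27ac with HDAC3-YF alone at 2 or 3 days with no day the other way, and 3 with FLAG alone, against 0.896% and 1.03% of all ESC sites. The H3K27ac scores below are the authors', on a scale that the sources used here do not state, and 0 stands for no interval within 1 kb.

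Hscb, which encodes an iron-sulfur cluster co-chaperone, shares its promoter region with the checkpoint kinase gene Chek2. The site had scores of 15.1, 11.4 and 7.97 with HDAC3-YF at days 5, 9 and 13, against 0, 21.1 and 0 with FLAG, and 195.5 in ESCs against 81.5 in MEFs. Dmrta1, a DM-domain transcription factor gene, had scores of 13.5, 0 and 11.0 with HDAC3-YF, 0 at all 3 days with FLAG, and 28.3 in ESCs against 0 in MEFs. Hpdl, a mitochondrial dioxygenase-like gene, had 12.4, 7.70 and 7.52 with HDAC3-YF and 19.1, 0 and 0 with FLAG, with 0 in ESCs and 8.81 in MEFs. Within 5 kb, the Hpdl site had a FLAG interval at every day and an interval in ESCs. All these OSKM scores were far below the ceiling of 200.

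Pkp2, a desmosomal plakophilin gene, had 9.39, 7.89 and 11.8 with HDAC3-YF and 7.64, 0 and 0 with FLAG, with 32.1 in ESCs and 7.67 in MEFs. In the other direction, a site 19 bp from Alkal1, which encodes a ligand of the receptor kinases ALK and LTK, had 0 at each day with HDAC3-YF and 9.84, 8.85 and 11.0 with FLAG. That site had 0 in ESCs and 14.3 in MEFs, and it was the only one of the 357 to differ the same way at all 3 days. Sccpdh, a saccharopine dehydrogenase-like gene whose promoter is shown above, had 0, 0 and 15.0 with HDAC3-YF and 8.17, 13.6 and 12.0 with FLAG, with 97.5 in ESCs and 199.7 in MEFs. Crct1, a gene of the epidermal differentiation complex, had 0 at each day with HDAC3-YF and 0, 8.07 and 8.68 with FLAG, with 0 in ESCs and 24.3 in MEFs. Scores in 1 arm alone at these 7 sites ran from 7.52 to 15.1, where the 6 OSKM lists start at 6.68 to 6.72 and have medians of 15.7 to 26.4.

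Most of the sites lay at promoters, as did those of the other acetylated classes. Of 351 sites, 230 had a start site within 1 kb (65.5%, 60.4 to 70.3%), against 69.7% of sites with both proteins (difference -4.21 points, -9.80 to 1.11) and 63.2% of SMRT-only sites (2.34 points, -3.97 to 8.49). NCoR-only sites without H3K27ac were rarely there, 31 of 405 (7.65%, 5.44 to 10.7%). By the nearest end of a protein-coding gene, the share of NCoR-only sites within 1 kb was 64.1% (59.0 to 68.9%), against 72.8% of sites with both proteins (-8.68 points, -14.2 to -3.38). Gene ends are both boundaries of protein-coding genes, counted over all 357 sites. The listed start sites include those of other RefSeq genes, lack those of some genes and leave out chromosome 18. The 2 gaps thus rest on different positions and gene sets. Sites between genes and over 1 kb from a listed start were more frequent among NCoR-only sites, 11.4% against 5.75% of sites with both proteins (5.64 points, 2.46 to 9.54).

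NCoR-only intervals overlapped promoter windows more often than those of the other classes. The window from 250 bases before to 50 after a start was overlapped by 102 of 351 NCoR-only sites (29.1%, 24.6 to 34.0%), against 22.7% of sites with both proteins (6.31 points, 1.32 to 11.7) and 18.2% of SMRT-only sites (10.9 points, 5.36 to 16.6). Of the 230 start-site sites, 170 had their centre downstream of the start and 60 upstream, with a median offset of 180 bp downstream and quartiles of -24.8 and 400.8 bp. Upstream centres within 1 kb made up 17.1% of NCoR-only sites and 12.3% of sites with both proteins (4.81 points, 0.83 to 9.37), against 15.3% of SMRT-only sites (1.82 points, -2.87 to 6.84). The median offset was 219.5 bp at sites with both proteins and 251.5 bp at SMRT-only sites. H3K27ac centres lay a median of 199 bp from the NCoR-only site centre in ESCs (quartiles 97.5 and 352.2), and 165 of the 330 near ESC intervals overlapped it.

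**Figure D4:**
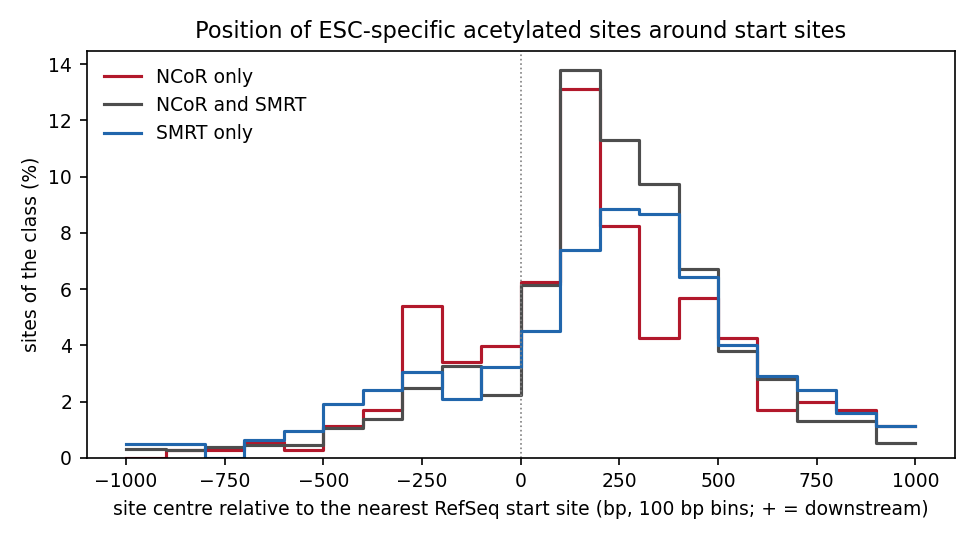
Distance of site centres from the nearest RefSeq start site (bp, x axis, 100 bp bins, positive downstream) as a share of each class's sites (%, y axis) for NCoR-only sites, sites with NCoR and SMRT and SMRT-only sites. All 3 classes peak downstream of the start; 5.41% of NCoR-only sites, 2.48% of sites with both proteins and 3.05% of SMRT-only sites lie 300 to 200 bp upstream.

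The 230 start-site sites belonged to 229 genes, 221 of them protein-coding. A start of another gene on the opposite strand within 1 kb, as at divergent promoters, was found at 46 of the 230 (20%, 15.3 to 25.6%), against 20.7% at sites with both proteins and 15.1% of all RefSeq starts. The 102 overlapped windows were rich in G and C, with a median of 66.3% and 28 CpG, close to the 67.3% and 29 CpG of windows at sites with both proteins and above the 52.7% and 7 of all 32851 windows.

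Letters of known factor motifs, searched on both strands, were counted beside that base composition. CCGGAAG, the ETS letters, stood in 19 of the 102 windows (18.6%, 12.3 to 27.3%), against 8.86% of all windows. Among windows with G and C between the members' quartiles, it stood in 12 of 52 member windows (23.1%, 13.7 to 36.1%) and 18.1% of 6883 windows in all. The SP/KLF motif stood in 23 (22.5%, 15.5 to 31.6%), against 11.4% of all windows, and between those quartiles in 12 of 52 (23.1%) against 26.99%. AGGTCA, the nuclear receptor hexamer, stood in 10 (9.80%, 5.41 to 17.1%), against 16.3% of all windows, and between the quartiles in 6 of 52 (11.5%) against 10.6%. CACGTG, the MYC E-box, stood in 9 (8.82%, 4.71 to 15.9%), against 7.15% of all windows, and between the quartiles in 4 of 52 (7.69%) against 11.3%. CCAAT, the NF-Y letters, stood in 37 (36.3%, 27.6 to 45.9%) against 37.4% of all windows. The octamer, the SOX-OCT composite and the ESRRB motif, whose letters contain AGGTCA, stood in none of the 102 (upper bound 3.63%), against 1.74%, 0.93% and 0.42% of all windows. With 102 windows, absences of that size are within counting error.

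H3K27ac was at the ceiling score of 200 in all 8 libraries at 8 sites, each within 1 kb of a start. In the order of the chromosome names, the first 6 are Phlda3, a p53-induced inhibitor of Akt signalling, Hnrnpab, an RNA-binding protein, Gpbp1, a GC-rich promoter-binding factor, Hipk3, a kinase, Ube2d3, a ubiquitin-conjugating enzyme, and Ppp1cb, a catalytic subunit of protein phosphatase 1. Their NCoR scores were 1.06, 2.21, 1.58, 1.37, 1.14 and 1.88 in that order. In all, 200 of the 357 sites had H3K27ac in all 8 libraries (56.0%), against 65.6% of sites with both proteins, a description since the rule used 2 of the 8.

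Further start-site genes are named here for their known roles, picked after their values were seen, so that their number says nothing. The mitotic kinase gene Aurka had scores of 200, 176.4 and 99.3 with HDAC3-YF at days 5, 9 and 13 and 200, 146.6 and 64.2 with FLAG, and 200 in ESCs and MEFs. Plk1, another mitotic kinase gene, was patchier, with 0, 12.0 and 7.49 with HDAC3-YF, 22.4, 0 and 0 with FLAG, and 154.1 in ESCs against 52.2 in MEFs. The spindle gene Spag5 had 20.7, 19.6 and 0 with HDAC3-YF and 23.7, 22.1 and 17.7 with FLAG. The DNA repair nuclease gene Mre11a had 177.2, 146.3 and 81.9 with HDAC3-YF and 135.6, 91.9 and 37.5 with FLAG.

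The proteasome genes Psma4, Psmd11, Psme2 and Psme4 each had H3K27ac in all 8 libraries. Of these, Psmd11, a subunit of the regulatory particle, had scores of 200, 200 and 78.0 with HDAC3-YF and 200, 200 and 128.9 with FLAG. Psme2, a subunit of the PA28 activator, had 107.2, 85.1 and 24.6 with HDAC3-YF and 52.5, 73.5 and 17.0 with FLAG. Setd1a, an H3K4 methyltransferase gene, stayed at 200 in all 8 libraries. The small GTPase gene Rhoa had 200, 200 and 116.9 with HDAC3-YF and 200, 200 and 45.5 with FLAG. Scores were lower at day 13 in both arms at most of these genes, as the day 13 lists were as a whole.

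Of the sites with H3K27ac in MEFs and not in ESCs, 5 of the 6 with the highest MEF score are given. Il15ra, the interleukin-15 receptor alpha chain gene shown above, had 171.1 in MEFs and 0 in ESCs. Through reprogramming it had scores of 34.0, 30.7 and 17.3 with HDAC3-YF and 71.8, 68.1 and 42.8 with FLAG, so that FLAG was higher at each day. Tap1, a transporter that loads peptides onto MHC class I, had 79.2 in MEFs and 0 in ESCs, with 13.1, 61.7 and 31.9 with HDAC3-YF and 13.5, 28.8 and 23.0 with FLAG. Tap1 and Il15ra are 2 of the 3 MEF-alone sites with H3K27ac in all 6 OSKM libraries.

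Of the others, 3 are given here, and none of these had H3K27ac within 1 kb in any OSKM library. They were Ctif, a factor of cap-binding-complex translation (200 in MEFs), Galnt17, a GalNAc transferase (110.8), and a site 56955 bp from the hyaluronan receptor gene Cd44 (76.7). Within 5 kb, the Ctif site had an interval in ESCs, with FLAG at day 9 and in both arms at day 13. The Galnt17 and Cd44 sites had none within 5 kb outside MEFs. Of the 27 MEF-alone sites, 13 had no H3K27ac within 1 kb in any OSKM library. The MEF-alone sites carry NCoR in ESCs where ESC H3K27ac was not called within 1 kb.

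Sites with H3K27ac in ESCs alone of all 8 libraries numbered 54, of which 5 lay at start sites, 26 in gene bodies and 23 between genes. Their ESC H3K27ac score had a median of 20.1 and ran from 6.65 to 200. The 6 highest were sites near Ranbp17, Fkbp4, which encodes an Hsp90 co-chaperone of steroid receptors, and Clec3a, a C-type lectin gene, each at 200, then Pramel6, a PRAME-family gene of early embryos and ESCs (180.5), Parp9 (155.1) and the transporter gene Abcc5 (140.7). Of these 6, only the Parp9 site lay in a gene body, and the others were 5490 to 27761 bp from the nearest protein-coding gene.

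Of the 25 ESC-alone sites that did have H3K27ac in an OSKM library, 16 had it in a single one. Of these, 7 had it only with HDAC3-YF at day 13, at or near Dmrt3, Mafa, Vstm2a, Mn1, Sgsm1, Zfp316 and Fam189a1. Their day 13 HDAC3-YF scores ran from 6.78 at Vstm2a to 15.1 at Dmrt3, below that list's median of 16.4 and above its lowest score of 6.72. Sites at or near Spock2 and Misp3 had it only with FLAG at day 13, Nppc, Tagln3 and Slc6a6 at day 9, and Atp8b5 at day 5. Ptk2, Tenm3 and Frmd4b had it only with HDAC3-YF at an earlier day. At day 13, 6.41% of all ESC sites had it with HDAC3-YF alone and 2.71% with FLAG alone. The 7 are therefore not read as a result about these sites. Dmrt3, a DM-domain transcription factor gene, had 188.9 in ESCs. A site 610 bp from an end of Il17rc, an interleukin-17 receptor gene, and upstream of the start of Creld1 (offset -802.5 bp) had scores of 108.3, 142.5 and 27.5 with HDAC3-YF and 75.9, 82.9 and 0 with FLAG, and 200 in ESCs. Arhgef40, a guanine nucleotide exchange factor gene, was the only ESC-alone site marked in all 6, with 8.32, 22.9 and 18.2 with HDAC3-YF and 12.1, 19.9 and 20.1 with FLAG. Within 5 kb, a MEF interval was present at the Il17rc and Arhgef40 sites, and a day 13 FLAG interval at the Il17rc site.

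Few genes of the pathway lists had an NCoR-only site in their body or within 20 kb. Of 21887 protein-coding genes 641 did (2.93%), and 6 of 10 lists had none. Those were the 35 pluripotency genes, 30 fibroblast genes, 9 co-repressor complex genes, 20 MYC growth genes, 26 genes of other lineages and 8 housekeeping genes. The epithelial list had 2 of 20, the clock and nuclear receptor list 2 of 30, the self-renewal signalling list 1 of 26 and the Polycomb and chromatin list 1 of 26. At the background share a list of 35 genes would hold about 1, so the counts are not a result about the lists.

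Both epithelial genes encode claudins of tight junctions. The site within 20 kb of Cldn6 had 0, 0 and 13.5 with HDAC3-YF and 0 at each day with FLAG, and 200 in ESCs against 11.1 in MEFs. The site by Cldn7 lies at the start of Ctdnep1, a nuclear envelope phosphatase gene, and had 163.0, 194.3 and 88.8 with HDAC3-YF and 122.8, 197.5 and 54.6 with FLAG. The clock genes were Cry1, a repressor of the clock, and Arntl, which encodes its activator BMAL1. Cry1 had 108.0, 200 and 99.8 with HDAC3-YF and 200, 200 and 78.3 with FLAG. Arntl had 85.5, 130.0 and 15.5 with HDAC3-YF and 53.1, 52.7 and 0 with FLAG, with 79.8 in ESCs and 200 in MEFs.

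Fgfr1, a fibroblast growth factor receptor gene, had 8.07, 23.2 and 33.4 with HDAC3-YF and 17.2, 18.5 and 0 with FLAG, and 200 in ESCs and MEFs. Within 1 kb, the day 13 calls of the Cldn6, Arntl and Fgfr1 sites were thus present with HDAC3-YF and absent with FLAG. Within 5 kb, a day 13 FLAG interval was present at Arntl and Fgfr1 and absent at the Cldn6 site. Kdm5b, an H3K4 demethylase gene, had an intragenic site with 9.54 in ESCs and none elsewhere.

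Sites rarely lay together: 8 of the 357 were within 20 kb of another, in 4 pairs. Of these pairs, 3 are described here. Emc9, an ER membrane complex gene, and Psme2 formed a pair with H3K27ac in all 8 libraries at both, and the Camkk2 pair lay at 1 start site. The pair by the predicted gene Gm39469 had 19.95 in ESCs alone at both sites. Of the microRNA hairpins within 10 kb, Mir1199 (252 bp) and Mir7229 (265 bp) were nearest, both by sites with H3K27ac in ESCs alone of ESCs and MEFs, and Mir26b lay 2755 bp from a site with H3K27ac in all 8 libraries.

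The sites were spread over the autosomes. Chromosome 8 held 25 of the 357 (7.00%), near its 6.51% of ESC H3K27ac intervals, whereas it held 261 of the 1575 sites with both proteins (16.6%). No NCoR-only site was on chromosome X, which held 2.31% of ESC H3K27ac intervals and 11 of the 5245 ESC co-repressor sites.

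**Figure D5:**
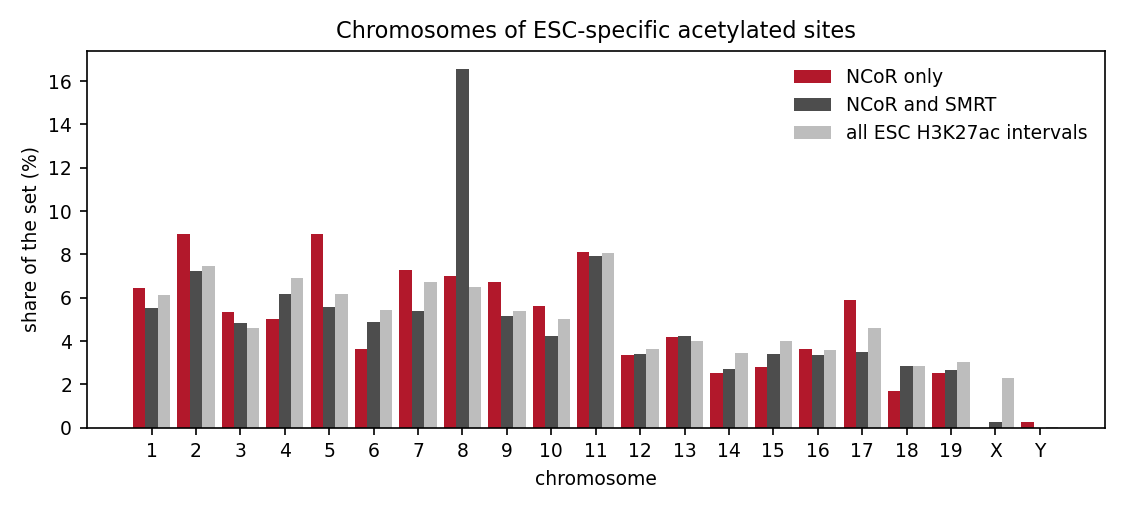
Share of each set on each chromosome (%, y axis) for the 357 NCoR-only sites, the 1575 sites with NCoR and SMRT and all ESC H3K27ac intervals (bars, from left). Chromosome 8 holds 7.00% of NCoR-only sites, 16.6% of sites with both proteins and 6.51% of ESC H3K27ac intervals.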

How the data were processed

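Each of 12 peak lists holds 200 bp intervals with a deposited score, the authors' own. Per the submitters' processing notes, the tools were Bowtie2 2.2.0 and MACS 1.4 and the build mm10; settings, read depth and the step that fixed widths are not given in the sources used here. H3K27ac scores end at 200, on an unstated scale. The depth of the libraries is unknown, so no floor was given.

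NCoR and SMRT intervals of ESCs overlapping by at least 1 bp were merged. H3K27ac counted as near with its centre within 1 kb of the site centre, and a gene was reached within 20 kb. Each group has 1 library, so conditions were not tested against each other within a day; the arms were paired by day in 1 exact sign-flip test. Shares carry 95% Wilson intervals, class differences Newcombe intervals, and HDAC3-YF minus FLAG intervals from discordant sites. They cover counting error only. Counting steps were tested on simulated data (Python 3.11.15, pandas 2.3.3, numpy 2.4.6).

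Gene ends, start sites, windows and sequences came from RefSeq GRCm38.p6. The windows of chromosome 18 were not used, and the starts of some genes on other chromosomes were missing from the list. Sequence was read in promoter windows, not in every site as planned, since no genome was used. Members and gene lists were chosen with earlier results of these data known. Sites were named by extreme NCoR score (6 each way), listed genes, H3K27ac in all 8 libraries, ESCs alone or MEFs not ESCs (6 each), difference between arms at 2 or 3 days, and pairs within 20 kb. A result at 1 named site is not reported here.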

Additional observations from a re-analysis of the deposited data

Results flagged for a closer look

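The difference in the share of NCoR-only sites with H3K27ac, HDAC3-YF minus FLAG, had opposite signs at different days. It was 4.20 percentage points at day 13, against -2.24 points at day 5 and -1.96 points at day 9. The differences between days were not tested, since each day and arm has 1 library. At day 13, 27 sites had H3K27ac with HDAC3-YF alone and 12 with FLAG alone, and the same change of sign was present over all ESC co-repressor sites (3.70 points at day 13, -1.53 at day 5).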

How the results depend on the processing

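Over 10 alternative settings, 8 of them planned, 46 of 66 values stayed within their interval or within 1.5 times the count, 20 moved and 0 reversed a called sign. Only the day 13 difference had a main interval that excluded 0, so no other value could count as reversed. Requiring no SMRT or day 9 co-repressor centre within 1 kb left 228 sites, with H3K27ac in both cell types at 57.9%, in ESCs alone at 31.6%, in any OSKM library at 71.5%, and 58.3% at gene ends. Requiring H3K27ac to overlap the site left 198, with 49.0%, 34.3% and 69.2% for both, ESCs alone and gene ends. The day 13 difference at those 198 sites was 8.08 points (0.76 to 15.4). The top 50% of each H3K27ac list gave 76.7%, 14.8% and 72.4%, and differences of -3.53 points at day 5 and 1.06 at day 9. Equal numbers of intervals (14251) gave 77.9%, 15.6%, 71.6% and 88.6% in any OSKM library, and differences of -3.46 points at day 5 and 0.69 at day 9, so the sign at day 9 depends on the threshold. Gene ends within 2.5 kb gave 73.1%. Needing H3K27ac in ESCs, chosen after seeing the data, gave 76.1% in both. Start sites in place of gene ends, also chosen then, gave 65.5%. Except for the alternatives' own construction, the cause was not tested. No paired analysis was possible because the labels carry no replicate numbers, other than pairing the arms' libraries by day. That pairing gave p = 1 (exact sign-flip test), where the smallest p possible is 0.25 and days of opposite sign cancel. Unknown depth limits every absent call.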
